A study of Mus musculus with 12 samples.

Results

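The genes described here are 10 inflammatory mediators measured in sorted mouse fractions that the titles call astrocytes. They include the interleukin-1 family cytokines Il1a, Il1b and Il33 and the cytokine Tnf. The others are the CC chemokines Ccl2, Ccl3, Ccl4 and Ccl9 and the CXC chemokines Cxcl2 and Cxcl16. All 10 were taken by name from the table of raw counts and were found among its 55401 gene rows. All 10 passed the filter on low counts that left 12613 genes for testing. The study measured RNA in cells sorted from mice and titled astrocytes. The mice carried CD51-Flp, a Flp recombinase named for CD51 (integrin alpha-v, encoded by Itgav), and Rosa-CAG-FSF-tdTomato, a red reporter that Flp switches on. Cells positive for GFP and tdTomato were labelled CD51+, and cells positive for GFP but not tdTomato were labelled CD51-, with 3 libraries for each class in cortex and in hippocampus, 12 in all. All 4 groups shared this reporter genotype and received no treatment that the labels name. The age and sex of the animals, what drove GFP, and whether the 3 libraries of a group came from separate animals are not given in the sources used here, so p-values measure only the spread between these libraries. The tdTomato label also depends on Flp activity at any earlier time in a cell's history.

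Interleukin-1 alpha, interleukin-1 beta and TNF are early inflammatory cytokines that in the brain are made mainly by microglia and other macrophages, and interleukin-1 alpha and TNF can, together with C1q, drive astrocytes into a reactive state. Chemokines are small secreted proteins that attract leukocytes through receptors on the cell surface. Interleukin-33 differs from the others: it is kept in the nucleus of astrocytes and oligodendrocytes and is released when cells are damaged. Transcription of many of these genes is also known to start while brain tissue is being dissociated into single cells.

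Promoter sequence is shown first because all members but Il33 moved together, as described further on. RefSeq start sites of the build GRCm38.p6 were found for 7 of the 10 members, not for Ccl2, Ccl4 and Cxcl16. The 120 bases before the start site were searched on both strands for 4 short motifs, with overlapping matches joined. They were the NF-kappa-B motif GGGANNNNCC, the AP-1 motif TGANTCA, the PU.1 motif GAGGAAGT and the TATA box TATAAA. The 5 stretches printed here are those of the members with a match before their first start site, written 5′ to 3′ on the strand of the gene with the matches in capitals. Il1a, Il1b and Tnf lie on the minus strand at chr2:129309973-129310092, chr2:129371140-129371259 and chr17:35202008-35202127. Ccl9 lies on the minus strand at chr11:83578637-83578756 and Cxcl2 on the plus strand at chr5:90903779-90903898.
Il1a: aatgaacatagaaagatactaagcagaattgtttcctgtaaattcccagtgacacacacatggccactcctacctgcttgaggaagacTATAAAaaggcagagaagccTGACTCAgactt
Il1b: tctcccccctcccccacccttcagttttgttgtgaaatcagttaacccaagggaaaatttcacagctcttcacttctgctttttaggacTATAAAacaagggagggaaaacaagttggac
Tnf: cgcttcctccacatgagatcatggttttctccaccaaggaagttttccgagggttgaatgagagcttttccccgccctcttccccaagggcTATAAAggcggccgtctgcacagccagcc
Ccl9: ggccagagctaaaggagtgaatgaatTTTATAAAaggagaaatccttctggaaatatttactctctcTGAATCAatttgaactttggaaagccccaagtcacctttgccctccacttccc
Cxcl2: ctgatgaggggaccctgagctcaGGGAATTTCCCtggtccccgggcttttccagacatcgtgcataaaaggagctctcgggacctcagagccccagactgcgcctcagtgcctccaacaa

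A TATA box was present before a start site of 5 of the 7 members, against 6.34% of the 32851 promoters of the table. Members were counted over any of their start sites, 8 windows for the 7, while the shares are of single promoters. It began 32 bases before the start in Il1a, 31 in Il1b and 29 in Tnf, while in Ccl9 it lay 92 bases away. In Il33 it preceded only a second, internal start site. The AP-1 motif was present in Il1a and Ccl9, 2 of the 7 members, against 3.41% of promoters. The NF-kappa-B motif was present in Cxcl2 alone, where matches on both strands overlapped, against 9.83% of promoters. The PU.1 motif was present in none of the 7 and in 1.33% of promoters. These are matches of letters in a short window and say nothing about binding by a factor.

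Total counts ran from 4351897 to 12847183 per library, and mitochondrial transcripts made up 36.5% to 71.1% of counts in the CD51+ libraries and 20.2% to 38.6% in the CD51- libraries. Values are given as CPM, which are counts scaled to 1000000 per library after scaling of library sizes by the trimmed mean of M-values (TMM), and 3 values in a row are replicates 1, 2 and 3 of a group in that order. A library in which a gene had no count allows a level of up to 0.385 to 0.688 CPM in the CD51+ groups, where 3 counts are taken as the limit. Summed CPM of 15 pan-astrocyte markers was 43370 to 69520 in CD51+ libraries and 4113 to 15250 in CD51- libraries, and all 15 were called higher in CD51+ over both regions. Itgav itself did not separate the classes: its log2 difference, CD51+ minus CD51-, was 0.91 ± 0.55 (SE) in cortex (edgeR, adjusted p = 0.269) and -0.04 ± 0.55 in hippocampus (edgeR, adjusted p = 0.984). The library names read G where titles read CD51+ and GT where they read CD51-, so the names may stand for the reverse assignment. Groups follow the titles here, and under the reverse assignment each CD51 difference would change sign.

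The 9 members other than Il33 were abundant or readily detected in every CD51- library and nearly absent from every CD51+ library, in cortex and in hippocampus. Of the 27 values of these 9 genes in cortex CD51+ libraries, 11 were 0 and the highest count was 23. In hippocampus CD51+ libraries 14 of 27 were 0 and the highest count was 25. In CD51- libraries no value was 0, and counts ran from 31 to 13501 in cortex and from 66 to 12185 in hippocampus. In bulk libraries, fewer cells of a type and less RNA per cell cannot be told apart.

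**Figure D1:**
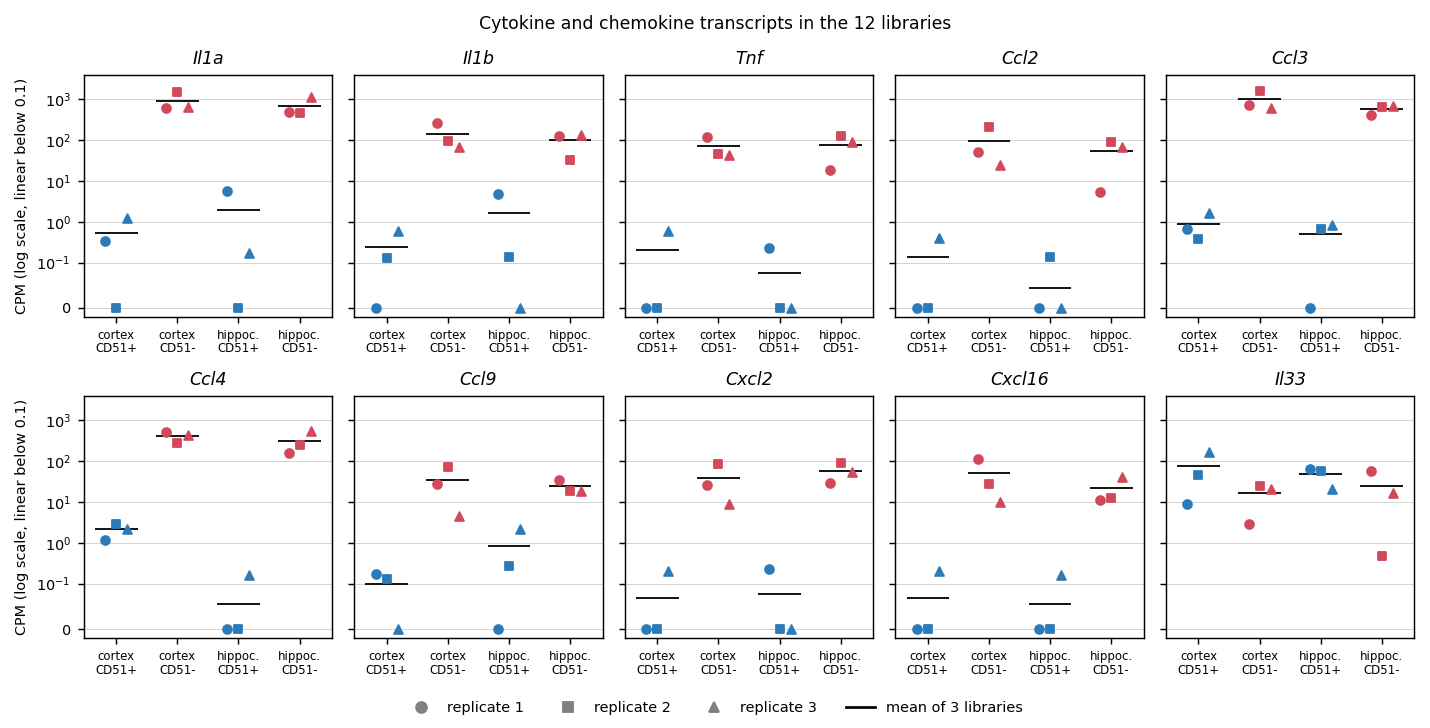
CPM of each of the 10 genes (vertical axis, logarithmic and linear below 0.1) in the 4 groups (horizontal axis), with 1 point per library, the marker shape giving the replicate and the line the mean of 3 libraries. For 9 genes each CD51- library lies above each CD51+ library, and for Il33 the groups overlap.

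Il1a, on chromosome 2 (mm10, 129299610 to 129309972, minus strand), encodes interleukin-1 alpha, which acts both as a membrane-bound ligand and as an alarm signal of dying cells. It measured 607, 1493 and 652 CPM in cortex CD51- and 0.336, 0 and 1.22 CPM in cortex CD51+. Hippocampus CD51- libraries held 473, 456 and 1103 CPM, and hippocampus CD51+ libraries 5.74, 0 and 0.168 CPM. The classes did not overlap in either region, and the single CD51+ library above 2 CPM was hippocampus replicate 1, which held 25 of the 26 counts of its group. Il1a was lower in CD51+ in cortex, with a log2 difference of -10.85 ± 1.5 (SE; edgeR, adjusted p = 0.00011). In hippocampus the log2 difference was -8.48 ± 1.35 (edgeR, adjusted p = 0.000713). The predicted gene Gm14023 lies across it on the opposite strand and shares 222 of its 1974 exon bases, and counting without strand cannot tell their reads apart there.

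Il1b, its neighbour on chromosome 2 (129364570 to 129371139, minus strand), encodes interleukin-1 beta, a precursor that must be cut before it is active. In CD51- it measured 258, 95.7 and 66.4 CPM in cortex and 128, 32.6 and 135 CPM in hippocampus. In CD51+ it measured 0, 0.128 and 0.609 CPM in cortex and 4.82, 0.134 and 0 CPM in hippocampus. Again the classes did not overlap, and again hippocampus replicate 1 held nearly all the CD51+ counts of its region, 21 of 22. The log2 difference was -9.15 ± 1.72 in cortex (edgeR, adjusted p = 0.00145) and -5.93 ± 1.47 in hippocampus (edgeR, adjusted p = 0.0238). The hippocampal call was lost without CD51+ replicate 2 (adjusted p = 0.0903) or replicate 3 (adjusted p = 0.0631).

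Tnf, on chromosome 17 (35199381 to 35202007, minus strand), encodes tumour necrosis factor, made as a membrane protein and shed by a protease. Its CD51- values were 120, 44.6 and 43.6 CPM in cortex and 18.6, 122 and 88.5 CPM in hippocampus. The 3 cortex CD51+ libraries held 3 counts together, all in replicate 3, and the hippocampus CD51+ libraries held 1. The pooled level was 481 times higher in CD51- cortex (95% counting interval 164 to 2335) and 1316 times higher in CD51- hippocampus (236 to 52020). Both differences were called (edgeR, adjusted p = 0.00292 and 0.00304). Counting error is all that these intervals hold, because reads copied by PCR and carrying no molecular identifier need not be separate molecules.

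Among the CC chemokines, Ccl3 and Ccl4 are attractants of monocytes and T cells and lie close together on chromosome 11, Ccl3 at 83647844 to 83649355 on the minus strand and Ccl4 at 83662584 to 83664683 on the plus strand. Ccl3 measured 734, 1618 and 602 CPM in cortex CD51- and 411, 634 and 669 CPM in hippocampus CD51-. Its CD51+ values were 0.672, 0.385 and 1.62 CPM in cortex and 0, 0.671 and 0.838 CPM in hippocampus. The lowest CD51- library thus stood at 411 CPM and the highest CD51+ library at 1.62 CPM. The log2 difference was -10.12 ± 0.99 in cortex (edgeR, adjusted p = 1.3e-06, the 4th smallest p of all genes) and -10.04 ± 0.99 in hippocampus (edgeR, adjusted p = 2.19e-06, the 3rd smallest).

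Ccl4 measured 513, 284 and 444 CPM in cortex CD51- and 161, 242 and 530 CPM in hippocampus CD51-. In cortex CD51+ it kept a low level in every library, 1.18, 2.95 and 2.23 CPM. In hippocampus CD51+ it gave a single count in 3 libraries, at 0, 0 and 0.168 CPM. The log2 class difference in cortex was -7.59 ± 0.92 (edgeR, adjusted p = 2.37e-05). In hippocampus the pooled level was 5454 times higher in CD51- (95% counting interval 979 to 215400; edgeR, adjusted p = 2.07e-06). Ccl4 was the member with the most CD51+ counts in cortex other than Il33, 41 in all.

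Ccl2 encodes the monocyte attractant MCP-1, the ligand of Ccr2, and lies on chromosome 11 (82035571 to 82037453, plus strand). It was uneven among CD51- replicates, at 51.5, 212 and 24.8 CPM in cortex and 5.42, 90.4 and 68.1 CPM in hippocampus. The CD51+ libraries held 2 counts in cortex and 1 in hippocampus, so the pooled ratios of 881 (244 to 7277) and 937 (168 to 37030) rest on very few counts. Both class differences were called (edgeR, adjusted p = 0.00197 in cortex and 0.00451 in hippocampus).

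Ccl9, a chemokine of rodents that acts through Ccr1, lies on chromosome 11 (83572919 to 83578636, minus strand) and had the weakest support among the 9. It measured 26.9, 72.1 and 4.52 CPM in cortex CD51- and 35.2, 19.04 and 18.4 CPM in hippocampus CD51-. Hippocampus CD51+ replicate 3 stood above the other CD51+ libraries at 2.18 CPM, with 13 of the 15 counts of its group, and was also the CD51+ library with the highest microglial marker sum. The cortex difference was called (pooled ratio 329, interval 90.7 to 2718; edgeR, adjusted p = 0.0205) but not without any 1 of the CD51+ replicates 1, 2 or 3 (adjusted p = 0.0577, 0.0613 and 0.0695) or without CD51- replicate 2 (0.0723). The hippocampal log2 difference of -4.86 ± 1.88 was not called (edgeR, adjusted p = 0.153), although the libraries did not overlap. DESeq2 (adjusted p = 0.00491) and limma-voom (adjusted p = 0.029) called it.

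The CXC chemokines were modest in level even in CD51- cells. Cxcl2, on chromosome 5 (90903871 to 90905938, plus strand), attracts neutrophils through Cxcr2, and measured 25.3, 84.6 and 8.75 CPM in cortex CD51- and 29.7, 90.1 and 54.2 CPM in hippocampus CD51-. It gave 1 count in each CD51+ group. Both differences were called (edgeR, adjusted p = 0.00492 and 0.0081), the hippocampal one not without CD51+ replicate 2 (0.0538).

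Cxcl16, on chromosome 11 (70453983 to 70459984, minus strand), is a membrane-bound chemokine and scavenger receptor whose partner is Cxcr6. It measured 114, 27.4 and 9.77 CPM in cortex CD51- and 11, 12.5 and 41.4 CPM in hippocampus CD51-, against 1 count in each CD51+ group. The calls (edgeR, adjusted p = 0.00817 and 0.0316) were lost when single libraries were left out. Leaving out CD51- replicate 1 ended the cortex call (0.0538). In hippocampus the call ended without CD51+ replicate 1, 2 or 3 (0.125, 0.146 and 0.0677), without CD51- replicate 3 (0.0922), or without cortex CD51- replicate 1 (0.0734), which enters through the shared estimate of spread.

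Il33, on chromosome 19 (29925114 to 29960718, plus strand), was the exception. It measured 9.07, 45.7 and 169 CPM in cortex CD51+ and 2.87, 25.04 and 20.6 CPM in cortex CD51-. Hippocampus CD51+ libraries held 62.4, 58.5 and 20.3 CPM, and hippocampus CD51- libraries 57.2, 0.464 and 16.1 CPM. The classes overlapped in both regions, and replicates of a group lay far apart, by 123-fold between the highest and the lowest in hippocampus CD51-. The log2 difference was 2.2 ± 1.34 in cortex (edgeR, adjusted p = 0.269) and 0.94 ± 1.29 in hippocampus (edgeR, adjusted p = 0.792). With an SE above 1 log2 unit, a several-fold difference lay within the error in either region, and none of the alternatives called one. Hippocampus CD51- replicate 2, at 5 counts, was the library with the lowest Il33.

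All members but Il33 passed the filter on low counts through their CD51- libraries, with at most 25 counts in any CD51+ library, so a call could hardly go any other way and the following counts are a description only. Over the list, 9 of 10 members were called lower in CD51+ in cortex, where 6.27% of all tested genes were, and 8 of 10 in hippocampus, where 2.70% were. Of all tested genes 5.05% were called higher in cortex and 0.618% in hippocampus, and of the members, where only Il33 had counts to allow it, none. Averaged over both regions 9 of 10 were called lower, against 13.9% of tested genes, and none higher, against 8.87%. The median log2 difference of the 10 was -9.11 in cortex and -9.01 in hippocampus, against -0.03 and -0.22 over all tested genes. The libraries of the classes did not overlap for 9 of 10 members in cortex, for 9 in hippocampus and for 9 with both regions together, against 16.6%, 16.7% and 6.98% of tested genes lower without overlap. The difference averaged over regions was -9.67 ± 1.01 for Il1a (edgeR, adjusted p = 7.12e-07) and -10.08 ± 0.7 for Ccl3 (1.34e-09). Ccl4 (edgeR, adjusted p = 5.72e-09) and Ccl9 (0.00294) were called there too. For Il33 it was 1.57 ± 0.93 (edgeR, adjusted p = 0.239).

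**Figure D2:**
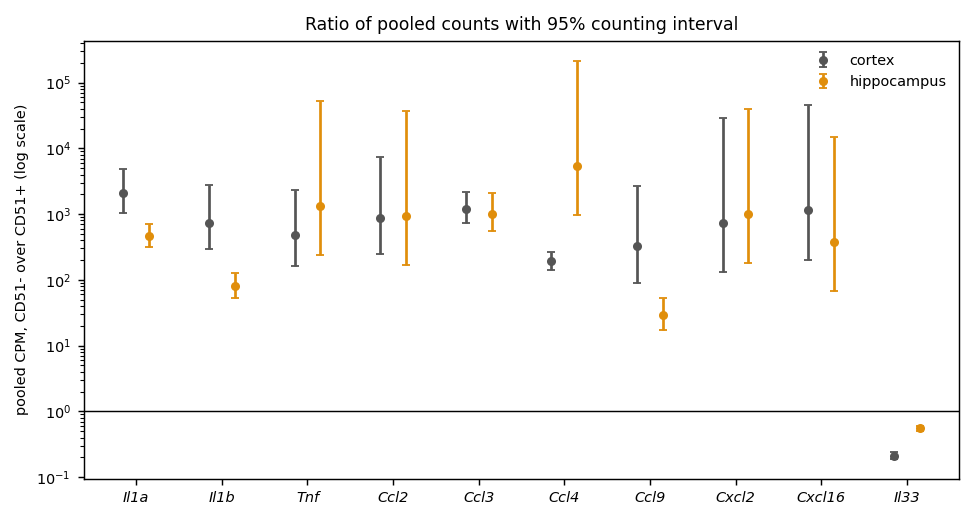
Ratio of the pooled level in CD51- to that in CD51+ (vertical axis, logarithmic) for each gene (horizontal axis) in cortex and hippocampus, with bars for the 95% counting interval. Cortex ratios of the 9 genes run from 193 for Ccl4 to 2082 for Il1a, and hippocampus ratios from 29.2 for Ccl9 to 5454 for Ccl4, while Il33 lies at 0.214 and 0.555.

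Per kilobase of exon, which allows levels to be compared between genes, Ccl3 was the most abundant member in CD51- cells, at a mean of 1285 CPM per kilobase in cortex and 746 in hippocampus. Ccl4 measured 626 and 471 and Il1a 465 and 343, and the steps between these 3 were smaller than the larger of the neighbours' SDs in both regions. A second tier held Ccl2 (84.5 and 48.0), Il1b (73.4 and 51.6) and Tnf (42.3 and 46.6), and the lowest of the 9 were Cxcl2 (19.1 and 28.1), Cxcl16 (16.7 and 7.16) and Ccl9 (11.3 and 7.95). The step from Il1a down to the second tier exceeded the SD of the members on either side in both regions. Further down, neighbours in the order differed by less than the larger of their SDs, except Cxcl2 and Ccl9 in hippocampus. In CD51+ cells the order was another: Il33 led at 25.8 CPM per kilobase in cortex and 16.3 in hippocampus.

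Within the CD51- class no member was called between the regions. Differences between hippocampus and cortex ran from -1.22 to 0.61 log2 units over the 10 members. edgeR called 0 of the 10, and 0 had an unadjusted p under 0.05. DESeq2 and limma-voom called none either. Over all genes edgeR called 0% of the 12613 lower and 0% higher, with 1664 at an unadjusted p under 0.05, while DESeq2 called 706 and limma-voom 109.

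Within the CD51+ class edgeR called no member between regions, against 0.0159% of genes lower and 0.0238% higher in hippocampus, and 1 member, Ccl4, had an unadjusted p under 0.05. Its 3 cortex libraries (7, 23 and 11 counts) lay above its 3 hippocampus libraries (0, 0 and 1 count), a separation in that direction that 5.97% of tested genes showed. The edgeR p was 8.67e-05 and the adjusted p 0.0711. It was called by DESeq2 (adjusted p = 0.0147), by edgeR with no filter (0.00496) or a robust fit (0.0285), and without cortex CD51- replicate 2 (0.0449) or 3 (0.0316), but not by limma-voom (0.668). The microglial marker sums of these libraries were 341 to 1062 CPM in cortex and 209 to 1795 CPM in hippocampus. The part of microglial RNA in the Ccl4 difference was not tested. Il1a and Il1b had higher fitted levels in hippocampus CD51+, by 1.93 and 2.71 log2 units, neither called. The sign turned without hippocampus CD51+ replicate 1, which held 25 of 26 and 21 of 22 of the counts there.

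Whether the class difference itself differed between regions was tested by the interaction of class and region. edgeR called 0 of 10 members and 0% of all genes, with 1 member (Ccl4) and 1583 genes at an unadjusted p under 0.05. DESeq2 and limma-voom called none of the 10, and over all genes DESeq2 called 522 and limma-voom 0. The Ccl4 p was 0.00149 (edgeR, adjusted p = 0.157). For Il1b the interaction was 3.22 log2 units (edgeR, adjusted p = 0.479).

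The sort also separated markers of other cells, and these moved with the 9 members. A list of 14 microglial markers summed to 12650, 12650 and 9575 CPM in cortex CD51- and to 5775, 8374 and 8759 CPM in hippocampus CD51-. In CD51+ they summed to 341, 1062 and 510 CPM in cortex and 209, 244 and 1795 CPM in hippocampus. Over both regions 13 of the 14 were called lower in CD51+, with log2 differences from -6.4 (Aif1) to -2.92 (Cx3cr1). The ratio of the group means of this sum was 18.2 in cortex and 10.2 in hippocampus, and that of the sum over the 9 members was 631 and 361.

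The 9 members summed to 2448, 3931 and 1855 CPM in cortex CD51- and to 1273, 1699 and 2708 CPM in hippocampus CD51-. Set against the microglial sum of the same library, this came to 19.35%, 31.1% and 19.37% in cortex CD51- and 22.0%, 20.3% and 30.9% in hippocampus CD51-. In CD51+ it came to 0.689%, 0.338% and 1.39% in cortex and 5.26%, 0.494% and 0.196% in hippocampus. The lowest CD51- library thus lay above the highest CD51+ library, which was hippocampus replicate 1. That library had the lowest microglial sum of the 12 (209 CPM) and, among CD51+ libraries, the highest sum of 10 border macrophage and monocyte markers (18.4 CPM). The border marker sum rested almost wholly on Mrc1. Over the hippocampus CD51+ libraries Mrc1 gave 112 counts, Pf4 4 and Ms4a7 1, while Cd163, Lyve1 and F13a1 had no count.

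**Figure D3:**
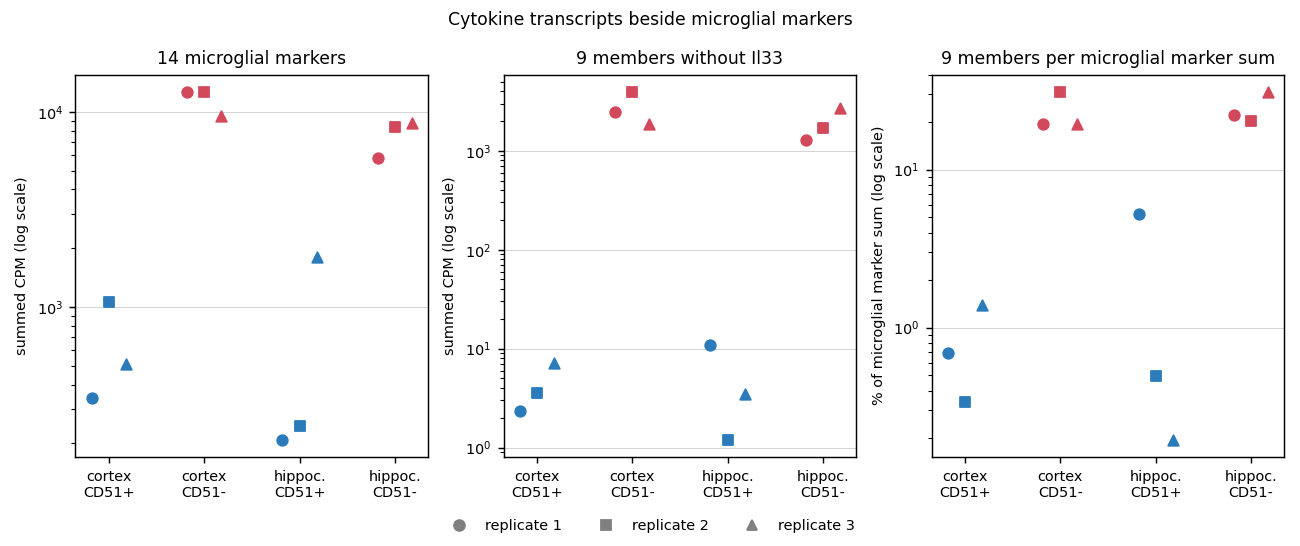
Summed CPM of 14 microglial markers, summed CPM of 9 members without Il33, and the second as a percentage of the first (vertical axes, logarithmic) for the 4 groups, with 1 point per library. In the third panel the 6 CD51- libraries lie between 19.35% and 31.1% and the 6 CD51+ libraries between 0.196% and 5.26%.

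Gene by gene, the mean log2 level relative to the microglial sum was lower in CD51+ for each of the 9 members, but single libraries overlapped. For Il1b, hippocampus CD51+ replicate 1 stood at 2.303% of the microglial sum, above the highest CD51- library (hippocampus replicate 1, 2.217%). For Ccl9, cortex CD51+ replicate 1 (0.0492%) lay above cortex CD51- replicate 3 (0.0472%). In a measure chosen after the data were seen, the log2 ratio with 0.1 CPM added fell by 6.43 for Il1a, by 6.0 for Ccl3 and by 5.07 for Ccl4 (exact two-sided permutation test within regions, 3 against 3 libraries in each, 400 arrangements, p = 0.005, the smallest these can give). The same p was found for Tnf, Cxcl2 and Cxcl16, with p = 0.01 for Ccl2, 0.02 for Ccl9 and 0.03 for Il1b in the exact test. None of these p-values was adjusted for the 10 genes tested. The 9 members passed the filter through their CD51- libraries, and 11 of 27 cortex and 14 of 27 hippocampus CD51+ values were 0. A lower ratio was thus nearly given beforehand, and these p-values are a description only. With 1 CPM added in place of 0.1, Il1a, Ccl3, Ccl4 and Tnf kept an exact p under 0.05, whereas the ratios of Il1b (p = 0.07), Ccl2 (0.155), Cxcl2 (0.23), Cxcl16 (0.575) and Ccl9 (0.92) did not. For Ccl9 the sign turned, to 0.06. The ratio of Il33 was higher in CD51+ by 6.31 log2 units (exact p = 0.005), while its own level overlapped between the classes and the microglial sum was lower in CD51+.

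Markers induced by tissue dissociation moved further than the microglial ones. A list of 19 early genes such as Fos, Egr1 and Atf3 summed to 17400, 16340 and 12210 CPM in cortex CD51- and to 6285, 9004 and 13240 CPM in hippocampus CD51-, against 203, 45.8 and 203 CPM in cortex CD51+ and 189, 209 and 523 CPM in hippocampus CD51+. Over both regions 18 of 19 were called lower in CD51+, with a median log2 difference of -7.12. The summed 9 members came to 14.1% to 24.1% of this sum in CD51- libraries and 0.578% to 7.84% in CD51+ libraries, again without overlap. This did not hold for each gene. With the early gene sum in place of the microglial sum, 3 members had no exact permutation p under 0.05: Il1b (p = 0.1), Cxcl2 (0.055) and Ccl9 (0.745). The Ccl9 log2 ratio then differed by -0.29. As with the microglial sum, low p-values of the other members were nearly given beforehand by the filter and the CD51+ values of 0. They were not adjusted, come from a measure chosen after the data were seen, and are a description only. The part that microglial RNA and early gene induction have in the class differences was not tested.

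Border macrophage and monocyte markers summed to 96.8 to 424 CPM in CD51- libraries and 0 to 18.4 CPM in CD51+ libraries, and all 6 that could be tested were called lower, with a median log2 difference of -8.04. Their defining monocyte genes Ly6c2 and Plac8 were at 0 in all 12 libraries. The sum of oligodendrocyte markers was also higher in CD51- (6814 to 63440 CPM, against 1200 to 4947 CPM), with 4 of 12 called lower in CD51+ and 1 higher. Mbp made up most of it, at a mean of 33280 CPM in cortex CD51- and 18090 CPM in hippocampus CD51-. Single markers went both ways. Means were higher in CD51+ for Opalin, Myrf and Olig2 in cortex, and for Mog, Mag, Cnp, Olig1 and Olig2 in hippocampus. In cortex CD51- the mean oligodendrocyte (43220 CPM) and microglial (11630 CPM) sums exceeded the pan-astrocyte one (7195 CPM). In its replicate 3 the pan-astrocyte sum (12880 CPM) exceeded the microglial one (9575 CPM). Hippocampus CD51- means were 23210, 7636 and 13850 CPM in that order. The lists differ in length, so these sums do not give shares of cells. Of 10 neutrophil markers Ly6g, Elane, Camp, Retnlg and Mmp8 were at 0 in all libraries, and the sum passed 2.03 CPM only in hippocampus CD51- replicate 1 (17.2 CPM). The sum of 11 lymphocyte markers reached 28.6 CPM in hippocampus CD51+ replicate 2, 17.8 CPM in cortex CD51- replicate 1 and 4.13 CPM in hippocampus CD51+ replicate 1, and at most 1.18 CPM in the other libraries. Among them Cd3e, Cd8a, Nkg7 and Gzma were at 0 in all libraries, while Trac gave 235 counts in hippocampus CD51+. Of the remaining cell types, 1 of 5 tested endothelial markers was called lower and 1 of 4 pericyte and fibroblast markers higher. No neuronal marker of 8 and no oligodendrocyte precursor marker of 2 was called by edgeR. The part of border macrophages and of these other cells in the differences of the members was not tested.

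The CD51- replicates themselves differed in which cytokines were high. In cortex CD51-, replicate 1 was the highest for 4 of the 9 members (Il1b, Tnf, Ccl4 and Cxcl16) and replicate 2 for the other 5. In hippocampus CD51-, replicate 3 was the highest for 5, replicate 2 for 3 (Tnf, Ccl2 and Cxcl2) and replicate 1 for Ccl9. The highest replicate exceeded the lowest by 15.9-fold for Ccl9 in cortex and 16.7-fold for Ccl2 in hippocampus, but by 1.63-fold for Ccl3 in hippocampus. The median coefficient of variation of the 9 was 73.6% in cortex CD51- and 58.0% in hippocampus CD51-. For the 14 microglial markers it was 28.5% and 29.7%, and for all tested genes with a group mean of at least 5 CPM it was 87.2% and 72.6%. These spreads were not compared by a test.

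**Figure D4:**
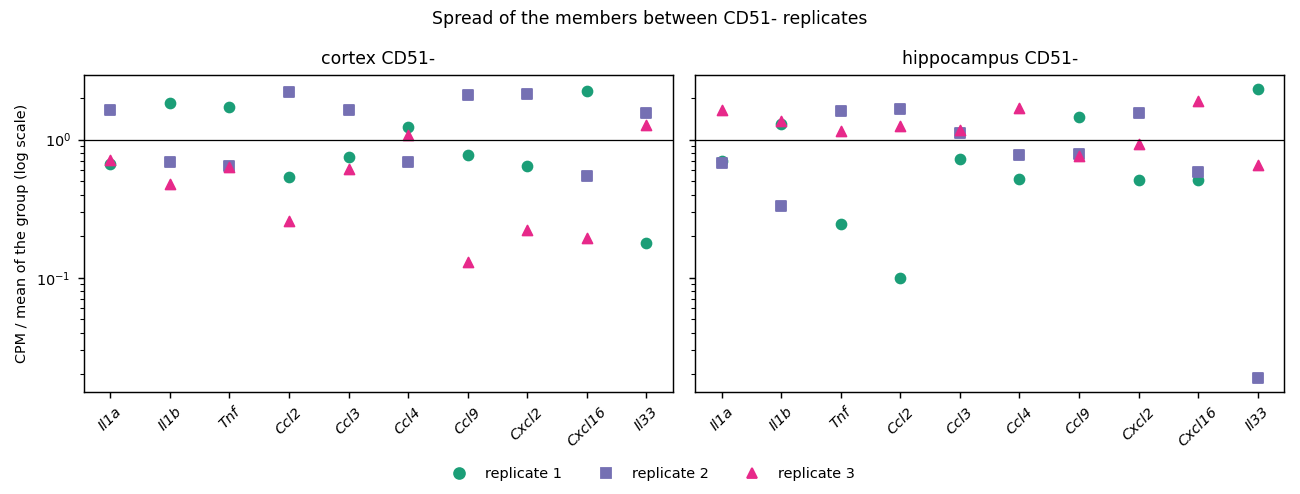
CPM of each gene divided by the mean of its group (vertical axis, logarithmic) in the CD51- replicates of cortex and of hippocampus, with 1 point per library. Ccl3 in hippocampus spans 1.63-fold and Il33 in hippocampus 123-fold.

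The wider pathway was described from lists of genes, whose counts are to be read against the 13.9% of all tested genes called lower and the 8.87% called higher over both regions. In a list of 5 to 12 tested genes a single call in a direction is near those shares. Among other CC and CX3C chemokines, 2 of 6 tested were called lower in CD51+ over both regions: Ccl12 (41.1 ± 25.9 CPM in cortex CD51- and 22.5 ± 22.9 in hippocampus CD51- (SD, n = 3), with 4 counts and 0 counts in CD51+; edgeR, adjusted p = 0.0011) and Ccl7, which attract monocytes through Ccr2. Ccl7 measured 30.3 ± 44.0 and 18.7 ± 24.8 CPM (SD, n = 3) in CD51- and had no count in any CD51+ library (edgeR, adjusted p = 0.00121). Ccl6 (edgeR, adjusted p = 0.362) and Ccl25 (0.533) were not called. Most of this list was not expressed at a testable level, and Ccl5 had no count in any library.

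Of 6 other CXC chemokines tested, 4 were called lower in CD51+ and 1 higher. Cxcl10, an interferon-induced attractant of T cells, had no count in cortex CD51+ and 2 counts in hippocampus CD51+, against 23.1 ± 34.3 and 29.3 ± 12.1 CPM (SD, n = 3) in CD51- (edgeR, adjusted p = 0.00109). Pf4, which is also among the border macrophage markers, was lower (log2 difference -7.01 ± 1.51; edgeR, adjusted p = 0.00213), and Cxcl9 was called by edgeR (adjusted p = 0.0091) but not by limma-voom (0.0616). Cxcl9 rested on 1 library in each region, at 50.03, 1.2 and 0.146 CPM in cortex CD51- and 0, 46.9 and 4.17 CPM in hippocampus CD51-, and overlapped CD51+ in both. Cxcl14 went the other way, at 180 ± 36.9 CPM in cortex CD51+ and 144 ± 28.1 in hippocampus CD51+ against 32.8 ± 27.3 and 12.2 ± 4.92 CPM in CD51- (SD, n = 3). Its log2 difference was 3.01 ± 0.65 (edgeR, adjusted p = 0.00221). Cxcl1, which acts through Cxcr2 like Cxcl2, had no count in any library.

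Among chemokine receptors, 3 of 5 tested were called lower and none higher. The atypical receptor Ccrl2 had a log2 difference of -9.4 ± 0.79 (edgeR, adjusted p = 3.57e-08) and the microglial receptor Cx3cr1 one of -2.92 ± 0.67 (0.00365). Cxcr4, the receptor of Cxcl12, was not called (edgeR, adjusted p = 0.0565). Several receptors of the member chemokines were under the filter: Ccr2 gave 6 counts over all 12 libraries, Ccr1 4, Cxcr2 2 and Cxcr6 18.

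Of 11 tested receptors and adaptors of interleukin-1, interleukin-33 and TNF, 4 were called lower and 1 higher. The TNF receptor Tnfrsf1b measured 79.5 ± 90.8 and 19.3 ± 12.5 CPM (SD, n = 3) in CD51- and gave 1 count in each CD51+ group (edgeR, adjusted p = 7.48e-05). The kinase Ripk1 was lower, with a log2 difference of -3.25 ± 1.01 (edgeR, adjusted p = 0.0235), and so was the adaptor Myd88 (0.0365), which had no count in cortex CD51+ and overlapped between the classes in hippocampus. The interleukin-1 receptor Il1r1 was called higher in CD51+ (log2 difference 4.91 ± 1.66; edgeR, adjusted p = 0.0359), at 36.5 ± 35.3 and 21.3 ± 16.2 CPM against 4.09 ± 7.08 and 0.192 ± 0.332 CPM (SD, n = 3), with overlap in cortex. The other TNF receptor, Tnfrsf1a, was not called (edgeR, adjusted p = 0.725). The interleukin-33 receptor Il1rl1 was under the filter, with all of its 131 counts in a single library.

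Genes that process or release these cytokines were called lower in 8 of 12 cases and higher in 1. Casp4, an inflammatory caspase, had a log2 difference of -10.37 ± 0.85 (edgeR, adjusted p = 2.68e-08). The inflammasome sensor Nlrp3 had one of -6.63 ± 0.87 (1.28e-05), and Casp8 one of -5.5 ± 0.76 (2.24e-05). The DNA sensor Aim2 measured 137 ± 37.9 and 104 ± 25.04 CPM (SD, n = 3) in CD51- and gave 39 counts in cortex CD51+ and 2 in hippocampus CD51+ (edgeR, adjusted p = 1.54e-05). Casp1, the enzyme that cuts interleukin-1 beta, was under the filter, with 347 counts over the 12 libraries.

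Regulators of cytokine transcription and mRNA decay were called lower in 20 of 23 cases and higher in none, against the 13.9% and 8.87% of all tested genes given above. This list also holds the receptors Tlr2, Tlr4 and Cd14 and the transcription factors Spi1 and Irf8. Of these, all but Tlr4 were among the 20 called lower. Nfkbiz, an NF-kappa-B cofactor, had a log2 difference of -8.09 ± 0.56 (edgeR, adjusted p = 1.34e-09), and Atf3, an early stress factor that also belongs to the early gene list, one of -8.47 ± 0.77 (1.26e-07). The NF-kappa-B subunit Rel stood at -8.69 ± 0.81 (edgeR, adjusted p = 2.19e-07) and the feedback inhibitor Tnfaip3 at -7.35 ± 0.78 (8.89e-07). The median log2 difference of this list was -6.64, against -0.14 for all tested genes.

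Of 9 other cytokines tested, 6 were called lower and none higher. Tgfb1 had a log2 difference of -5.24 ± 1.0 (edgeR, adjusted p = 0.000661). The microglial growth factor Csf1 had one of -3.33 ± 0.67 (edgeR, adjusted p = 0.00123) over both regions, and was called in cortex (0.0011) but not in hippocampus (0.762), where CD51+ libraries held 103 ± 101 CPM (SD, n = 3). Il16 had no count in any CD51+ library (edgeR, adjusted p = 0.000805). Tnfsf13b, the B cell factor BAFF, gave 1 count in CD51+ libraries (edgeR, adjusted p = 0.013) and was at 0 in hippocampus CD51- replicate 2. Il6 and Il10 were under the filter, with 63 of 70 and 381 of 397 counts in a single library. The other interleukin-1 family genes that could be tested, Il18 (edgeR, adjusted p = 0.189) and Il18bp (0.782), were not called.

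The genes whose log2(CPM + 1) followed each member most closely over the 12 libraries, among 8599 with a mean of at least 5 CPM, were, for the 9 members, genes that were themselves called lower in CD51+. Pearson's r, given as a description over libraries that share depth and class, was 0.997 between Ccl3 and Vav1, a signalling protein of blood cells, and 0.997 between Ccl3 and the receptor Gpr183. It was 0.992 between Il1a and Nfkbiz, 0.992 between Tnf and Wdfy4, 0.991 between Ccl4 and Mgat4a and 0.992 between Cxcl2 and Tifab. For Il1b it was 0.981 (Rps6ka1), for Ccl2 0.979 (H2-Q7), for Cxcl16 0.982 (Vav2) and for Ccl9 0.972 (Nfkb2). The closest gene to Il33 was Idh3g, at 0.839, a looser match than for any of the 9.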

How the data were processed

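RNA was measured by bulk RNA-seq in 12 libraries of sorted fractions titled astrocytes. They were made from 10 ng of RNA each and read as pairs of 150 bases, per the labels' protocols. The deposited values are raw counts per gene: per the file headers, the authors counted read pairs with featureCounts 2.0.4 over the exons of GENCODE vM25, without strand, primary alignments only, leaving out pairs on different chromosomes. STAR, mm10 and DESeq2 1.40.2 are named in the submitters' processing notes. Exon length per gene comes from the same deposited table. Coordinates are those of the counts file (mm10). Symbols came from a name table that matched 55141 of 55401 gene IDs, and promoter sequences came from RefSeq (GRCm38.p6), matched for 7 of 10 members.

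Genes were filtered with filterByExpr (minimum count 10, minimum total 15), scaled by TMM and tested by edgeR's quasi-likelihood method (version 4.0.16, R 4.3.3), with all 12 libraries in 1 fit with 4 group levels, Benjamini-Hochberg adjustment over 12613 genes and a threshold of 0.05, for 6 contrasts. edgeR estimated a common dispersion of 1.64 (biological coefficient of variation 1.28). The SE is the absolute log2 difference divided by the square root of the F statistic. Where a CD51+ group held 1 to 3 counts of a gene, no fitted class difference of that gene is printed, the members' ratios of pooled counts carry exact 95% intervals, and where it held none no fold is given. Medians over lists and the lowest and highest values of marker lists use all fitted differences. Ratios to the microglial sum were compared by exact permutation of libraries within regions. The edgeR script was tested on simulated data.

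The members and gene lists were chosen with earlier results of these data known. The text names the 10 members, up to 4 genes of each list by p in the averaged contrast, and for each member the genes that correlate best. A few genes of the lists are not reported here. A few others were named after their values were seen: Ccl5, Cxcl1, Tnfrsf1a, Il1rl1, Casp1, Il6, Il10 and receptors of the members. Alternatives were DESeq2 1.42.0, limma-voom (limma 3.58.1), other scalings and filters, a robust fit, a replicate block, fits on the libraries of a contrast alone and each of the 12 libraries left out. Plots used matplotlib 3.10.9 (Python 3.11.15).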

Additional observations from a re-analysis of the deposited data

How the results depend on the processing

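Under DESeq2, limma-voom, other scalings, filters and fits, the 9 members other than Il33 stayed lower in CD51+ in both regions, and in no run was Il33 called. The number called lower in cortex was 9, and 8 to 9 with a library left out. In hippocampus it was 8, 9 under DESeq2 and under limma-voom, which added Ccl9, 8 in the other fits on all libraries or on those of the region, and 5 to 8 with a library left out, with 5 without CD51+ replicate 2, where Il1b, Cxcl2 and Cxcl16 were lost. Between the regions of CD51+ the number called lower was 0 in the main analysis, 1 (Ccl4) under DESeq2, with no filter and with a robust fit, and 0 to 1 with a library left out. The 26 other region and interaction values of single members, gave 0 calls in 557 runs and took the other sign in 58. The fitted region differences of Il1a and Il1b in CD51+ reversed to -2.44 and -1.49 without hippocampus CD51+ replicate 1 and reached 3.47 and 4.21 without cortex CD51+ replicate 3, and the Ccl9 ratio to the microglial sum to 0.06 with 1 CPM added. The cause was not tested.

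Counts over all genes varied more than those of the members. In cortex 791 genes were called lower (1747 by DESeq2, 476, 504 and 488 without CD51+ replicates 1, 2 and 3) and 637 higher (1472 by DESeq2, 1079 by limma-voom, 408 on the cortex libraries alone, 391 without CD51+ replicate 3, 372 without CD51- replicate 2). In hippocampus 340 were called lower (1070 by DESeq2, 627 by limma-voom, 531 with no filter, 210 and 169 without CD51+ replicates 1 and 2). Higher were 78 (387 by DESeq2, 258 by limma-voom, 168 on the hippocampus libraries alone), and 27 to 125 with a library left out.

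The labels number replicates 1 to 3 in each group. Deviations of same-numbered libraries from their group means correlated at -0.052 to 0.026. With 3 libraries a group and a wide spread between them, this cannot show whether same-numbered libraries share an animal, so pairing stays unknown. With the replicate number as a block, 9 members were called lower in cortex, 8 in hippocampus and 9 over both regions, and no call of a member changed. Over all genes the block moved the counts called lower to 700 in cortex and 365 in hippocampus.

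Depth limits the CD51+ side: with 1 to 3 counts in a group of 3 libraries, ratios have wide counting intervals. These reached up to 44840 in cortex, for Cxcl16 at a ratio of 1135, and up to 215400 in hippocampus, for Ccl4 at 5454. The limit that a count of 0 allows reaches 0.688 CPM. With 3 libraries a group, single libraries decided the call of Ccl9 in cortex, those of Cxcl16 in both regions, and those of Il1b and Cxcl2 in hippocampus.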

Other observations

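Gm14023 (ENSMUSG00000085498.1), a predicted gene on the plus strand of chromosome 2 at 129297370 to 129307826 (mm10), lies across Il1a on the opposite strand. It gave 5024, 8953 and 5561 counts in cortex CD51- and 6103, 4315 and 9618 counts in hippocampus CD51-. In CD51+ it gave 7, 3 and 4 counts in cortex and 0, 4 and 1 in hippocampus. Its classes did not overlap, and its total of 39593 counts came to 84.2% of the 47000 of Il1a, although only 222 of its 1781 exon bases are shared with an exon of Il1a. The opposite-strand neighbours of other members held few reads: Il1bos 17 counts (0.22% of Il1b) and Zmynd15 24 counts (1.01% of Cxcl16).

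Il10, the anti-inflammatory cytokine, was under the filter but not absent: 381 of its 397 counts fell in a single library. Ccl22 gave 268 counts and Il1rl1 131 counts, each wholly in 1 library. These single-library signals were not tested.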
